A study of Mus musculus with 24 samples.

Results

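Mt1, Mt2 and Slc39a8 are 3 mouse genes of zinc handling, 3 of the 8973 named genes on the arrays, and each was read by 1 probe. They were chosen by name, with their levels over the 6 groups of the study already known, so their levels and differences are given here as a description with standard errors and without p-values. Mt1 and Mt2 encode metallothioneins, small cysteine-rich proteins of the cytosol that bind zinc, copper and cadmium. Slc39a8 encodes ZIP8, a membrane carrier that brings zinc, manganese, iron and cadmium into the cytosol.

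The arrays compared cells sorted for Flk1, the VEGF receptor that the gene Kdr encodes and a surface protein of vascular and blood precursors. The cells came from a study of endothelial commitment of mouse embryonic stem cells, and the labels give 6 groups: cells with Flk1 (Flk1+) and cells without it (Flk1-), each at 84 h, 95 h and 8 d, with 4 arrays a group. Every array held 1 sorted sample, labelled with Cy5, beside the same kind of reference, RNA of homogenised mouse pups labelled with Cy3. Cell line, strain and culture conditions are not given in the sources used here, nor whether samples 1 to 4 of a group were separate cultures, so the spread between them may be technical. A level below is the log2 ratio of a sample over the pup reference after the median of the array was set to 0; the log base is not stated and was read as 2. A level below 0 therefore means a lower ratio to the pups than the median probe had, and the level of 1 probe cannot be set against that of another.

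In mouse tissues, transcription of Mt1 and Mt2 is held by the zinc-sensing factor MTF1, which binds metal response elements in their promoters, and it is also raised by glucocorticoids and by oxidative stress. Free zinc is kept low by metallothioneins, by ZIP (Slc39) carriers that bring zinc into the cytosol and by ZnT (Slc30) carriers that take it out. In the mouse embryo, metallothioneins are abundant in the visceral endoderm of the yolk sac and later in the liver.

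The promoters are shown because metal response elements are the letters by which zinc is known to act on Mt1 and Mt2. These are the 250 bases before each annotated start in RefSeq, build GRCm38.p6, all on the plus strand, and matches to the metal response element core are in capitals. Both arrangements of the core, TGCACNC and TGCGCNC, were searched on both strands. The Mt1 window is chr8:94178839-94179088 and the Mt2 window chr8:94172368-94172617. Slc39a8 has 2 annotated starts, with windows at chr3:135825029-135825278 and chr3:135825407-135825656.
Mt1: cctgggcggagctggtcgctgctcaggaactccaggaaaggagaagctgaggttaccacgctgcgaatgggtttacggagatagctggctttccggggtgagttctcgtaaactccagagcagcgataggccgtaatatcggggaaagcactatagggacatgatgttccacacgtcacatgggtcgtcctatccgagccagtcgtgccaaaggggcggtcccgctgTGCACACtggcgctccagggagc
Mt2: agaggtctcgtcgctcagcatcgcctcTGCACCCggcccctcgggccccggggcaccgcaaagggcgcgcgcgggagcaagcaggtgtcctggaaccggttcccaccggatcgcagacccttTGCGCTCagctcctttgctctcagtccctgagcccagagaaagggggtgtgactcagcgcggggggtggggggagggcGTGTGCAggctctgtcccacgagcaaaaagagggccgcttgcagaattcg
Slc39a8, first start: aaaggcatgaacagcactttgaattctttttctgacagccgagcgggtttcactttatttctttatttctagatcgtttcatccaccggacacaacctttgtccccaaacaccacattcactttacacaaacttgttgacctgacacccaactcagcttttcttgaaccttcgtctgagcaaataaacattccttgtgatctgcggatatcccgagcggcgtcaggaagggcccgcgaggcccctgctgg
Slc39a8, second start: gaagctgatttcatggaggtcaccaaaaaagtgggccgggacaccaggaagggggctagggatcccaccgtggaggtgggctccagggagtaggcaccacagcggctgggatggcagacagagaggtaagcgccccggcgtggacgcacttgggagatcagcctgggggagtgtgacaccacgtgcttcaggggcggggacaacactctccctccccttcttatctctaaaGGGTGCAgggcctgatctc

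The Mt2 window held 3 matches and the Mt1 window held 1, while the Slc39a8 windows held 0 at the first start and 1 at the second. Of 32851 promoter windows of that length in the same table, 21.4% held at least 1 match and 1.26% held at least 3. The Mt1 match began 23 bases before the annotated start. Letters of the antioxidant response element, TGACNNNGC on either strand, occurred 1 time in the Mt2 window and 1 time at the first start of Slc39a8, in neither case overlapping a metal response element match. That motif was present in 10.2% of all windows. In windows of 300 bases, which run on past the start, Mt1 held 3 matches and Mt2 held 4, against at least 3 in 1.97% and at least 4 in 0.517% of such windows. The count of Mt1 thus depends on the window and on where the start is annotated. Bases further past the start were not searched, so these counts do not rank the Mt1 and Mt2 promoters. A match is only a match of letters, and nothing about binding was measured.

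Of the 24 arrays, 3 at 84 h stood apart from the rest of their groups: Flk1+ replicates 2 and 4 and Flk1- replicate 4. Between the 4 Flk1+ arrays of 84 h, correlations over all features ran from 0.59 to 0.93, against 0.925 to 0.955 for Flk1+ at 8 d. Low agreement was not limited to 84 h. Among Flk1+ arrays of 95 h the weakest pair had 0.751 and the strongest 0.855. For Flk1- arrays of 95 h these values were 0.669 and 0.898. The Flk1- group of 84 h, replicate 4 included, had its weakest pair at 0.877, above those of 95 h. Sort differences of Mt1, Mt2 and Slc39a8 at 84 h are therefore given with and without these 3 arrays, as are the counts of called genes. Kdr, the gene of the sort, was used together with the dyes in the labels to read the direction of the ratios, so it is no independent check of the sort. It was higher in Flk1+ cells by 1.91 ± 0.23 (SE) at 84 h (2.49 without the 3 arrays), 2.93 ± 0.23 at 95 h and 1.89 ± 0.23 at 8 d. Pluripotency genes had a mean level above 0 at 84 h: that of 7 measured genes of the list lay between 2.22 and 2.32 on the 4 Flk1- arrays and between 0.837 and 1.38 on the Flk1+ arrays. A ratio to the pups does not give an amount, and the genes differed. On the Flk1- arrays Tdgf1 lay between 3.45 and 4.41 and Fgf4 between -0.14 and 0.08.

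Both metallothioneins were lower in Flk1+ than in Flk1- cells at every time, on every array. At 84 h the level of Mt1 was -2.09, -1.63, -2.12 and -1.89 in the Flk1+ samples 1 to 4, and -0.52, -0.12, -0.23 and -0.22 in the Flk1- samples. The groups did not overlap, with the lowest Flk1- sample well above the highest Flk1+ sample. The difference was -1.66 ± 0.18 (SE, n = 4 arrays a group), or 3.16-fold, and -1.82 without the 3 arrays that stood apart. In bulk RNA of sorted cells, fewer cells that express a gene and less RNA per cell cannot be told apart.

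Mt2 showed the wider gap of the pair. Its level at 84 h was -2.47, -1.64, -2.39 and -2.29 in the Flk1+ samples, and -0.43, -0.08, -0.22 and -0.10 in the Flk1- samples. All Flk1+ arrays lay below all Flk1- arrays, with Flk1+ replicate 2 the nearest to them for both metallothioneins. The difference of Mt2 was -1.99 ± 0.23 (SE), or 3.97-fold, the 12th most negative of 17440 features, and -2.19 without the 3 arrays. Non-overlapping groups with Flk1+ lower occurred in 8.6% of all features at this time.

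At 95 h the Flk1+ samples read -1.92, -1.57, -1.96 and -1.99 for Mt1, and the Flk1- samples -0.89, -0.90, -0.48 and -0.99. The groups were again apart, by -1.04 ± 0.18 (SE) or 2.06-fold. For Mt2 the Flk1+ levels were -2.17, -2.48, -2.64 and -2.95, and the Flk1- levels were -0.72, -0.64, -0.57 and -0.85. Here the 4 Flk1- samples lay close together while the Flk1+ samples spread more widely, and the difference was -1.86 ± 0.23 (SE) or 3.64-fold. Separation with Flk1+ lower was found for 2.67% of all features at 95 h, and Mt2 had the 9th most negative difference.

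By 8 d the differences were smaller in size than at 95 h, and the groups were still fully apart. This narrowing was not settled. Over 24 alternatives of processing and arrays left out, the change from 95 h ran from -0.03 to 0.32 for Mt1. For Mt2 it ran from 0.28 to 0.70, with a standard error, given below, that is large beside it. Mt1 stood at -2.22, -2.49, -1.75 and -2.21 in the Flk1+ samples and at -1.15, -1.63, -0.74 and -1.54 in the Flk1- samples. The lowest Flk1- sample, replicate 2, was just above the highest Flk1+ sample, replicate 3, and the difference was -0.90 ± 0.18 (SE) or 1.87-fold. Mt2 stood at -3.05, -3.12, -2.55 and -3.01 in the Flk1+ samples and at -1.18, -2.15, -0.88 and -1.98 in the Flk1- samples. That is a difference of -1.38 ± 0.23 (SE) or 2.61-fold, the 9th most negative, at a time when 6.89% of all features separated with Flk1+ lower. Because the sorts did not overlap at any time, the Flk1+ sample was below the Flk1- sample of the same number in 12 of 12 cases for each metallothionein. That count follows from the separation whatever the numbering, and adds nothing to it.

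**Figure D1:**
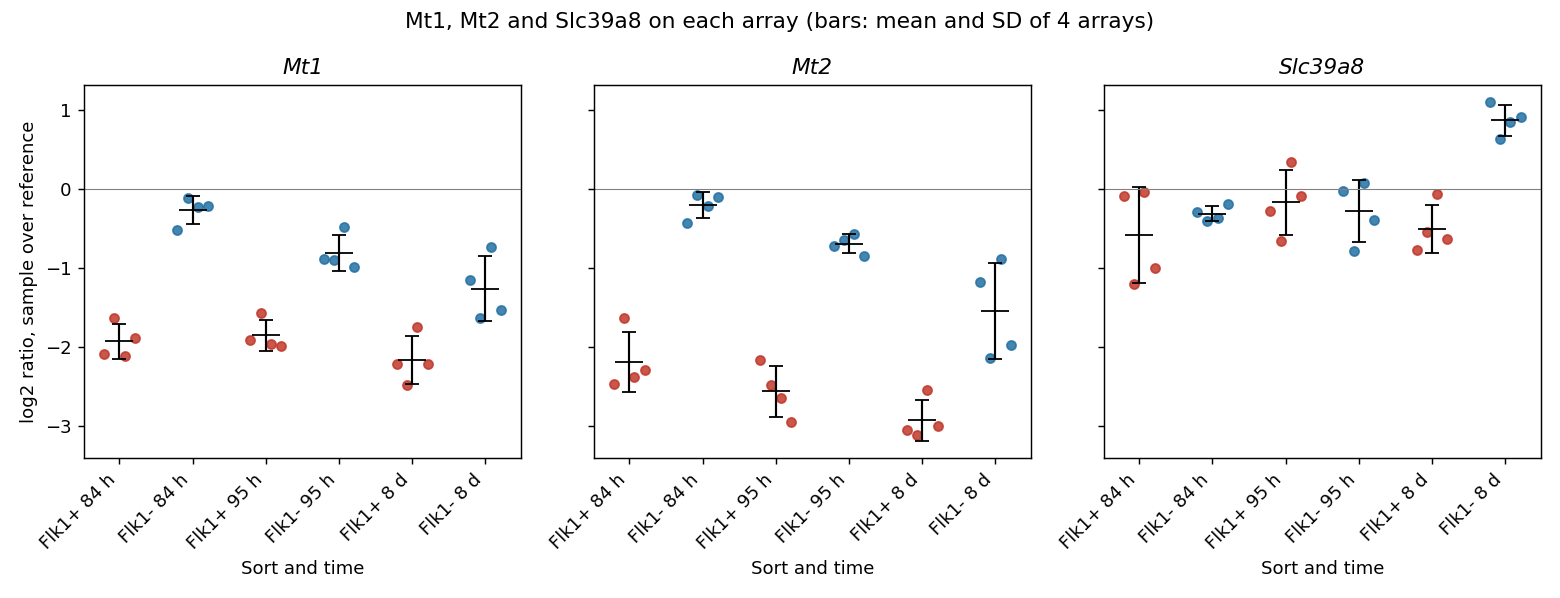
Level of Mt1, Mt2 and Slc39a8 on each of the 24 arrays (log2 ratio of sample over pup reference, array median at 0) by sort and time. Dots are arrays and bars the mean with the SD of 4 arrays; Mt1 and Mt2 lie lower in Flk1+ at all 3 times, and Slc39a8 stands out in Flk1- at 8 d only, with levels from 0.63 to 1.10.

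The Flk1- samples of 8 d were uneven. Replicates 1 and 3 had the higher metallothionein levels and replicates 2 and 4 the lower ones, for Mt1 and Mt2 alike. The SD of Mt2 over these 4 samples was 0.61, above that of 99.7% of features in the group, and the SD of Mt1 was 0.41, above 98.8%. The Flk1+ samples of 8 d were also spread beside other features. Their SD was 0.26 for Mt2, above 94.2% of features, and 0.31 for Mt1, above 96.4%. Replicate 3 was the highest in both sorts for both genes. Mean levels with SD (n = 4) of Mt1 from the lowest group to the highest were -2.17 ± 0.31 in Flk1+ at 8 d, -1.93 ± 0.23 in Flk1+ at 84 h, -1.86 ± 0.20 in Flk1+ at 95 h, -1.27 ± 0.41 in Flk1- at 8 d, -0.82 ± 0.23 in Flk1- at 95 h and -0.27 ± 0.17 in Flk1- at 84 h. Each neighbouring pair in this order overlapped on some array.

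For Mt2 the order was Flk1+ at 8 d (-2.93 ± 0.26), Flk1+ at 95 h (-2.56 ± 0.32), Flk1+ at 84 h (-2.20 ± 0.38), Flk1- at 8 d (-1.55 ± 0.61), Flk1- at 95 h (-0.70 ± 0.12) and Flk1- at 84 h (-0.21 ± 0.16), again as mean with SD. Of these neighbours, the Flk1- groups of 8 d and 95 h, and of 95 h and 84 h, did not overlap. In Flk1- cells Mt2 was thus lower by -0.49 ± 0.23 (SE) at 95 h than at 84 h and by -0.85 ± 0.23 (SE) at 8 d than at 95 h, where 4.48% and 14% of all features separated with the later time lower. Mt1 in Flk1- cells differed by -0.54 ± 0.18 and -0.45 ± 0.18 (SE) over the same steps, with overlapping arrays in both.

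Within Flk1+ cells, consecutive times overlapped for both genes. From 84 h to 95 h the difference was 0.08 ± 0.18 (SE) for Mt1 and -0.36 ± 0.23 for Mt2, and from 95 h to 8 d it was -0.31 ± 0.18 for Mt1 and -0.37 ± 0.23 for Mt2. After quantile normalization the first of these for Mt1 was -0.28, of opposite sign. It was -0.02 without Flk1+ 95 h replicate 2, and between 0.01 and 0.18 without any other single array. For Mt2 that first step was -0.18 without Flk1+ 84 h replicate 2, -0.24 without Flk1+ 95 h replicate 4 and -0.13 without the 3 arrays that stood apart. The second step was -0.24 for Mt2 without Flk1+ 95 h replicate 1, and for Mt1 -0.20 without Flk1+ 8 d replicate 2 and -0.21 without Flk1+ 95 h replicate 2. The sort difference of Mt1 narrowed by 0.62 ± 0.26 (SE) between 84 h and 95 h, and by 0.20 after quantile normalization. For Mt2 that change was 0.13 ± 0.33 between 84 h and 95 h, within its error and -0.36 after quantile normalization, and 0.48 ± 0.33 between 95 h and 8 d, where leaving out 1 array moved it between 0.28 (without Flk1- 8 d replicate 2) and 0.70 (without Flk1- 8 d replicate 3).

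Mt1 and Mt2 moved together from array to array. Over the 24 arrays their Pearson correlation was 0.97 (Spearman 0.945), and it was 0.97 over the 21 arrays left without those that stood apart. This mixes the sort with the spread between samples, so deviations from the group means were also set side by side: there the correlation was 0.836, and among 17439 other features no feature followed Mt1 more closely. The arrays share samples and scaling, and the paralogs are alike in sequence. The probe sequences were not used here, so signal of one transcript on the probe of the other was not tested.

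**Figure D2:**
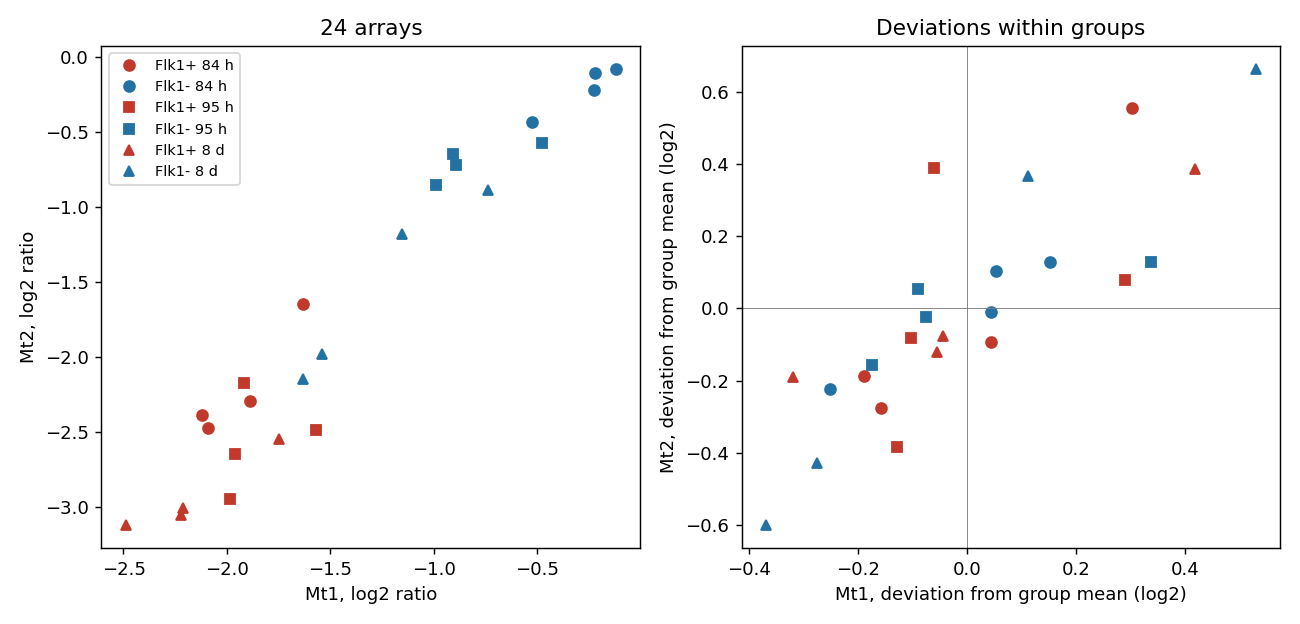
Mt2 level against Mt1 level on the 24 arrays (left) and both as deviations from their group means (right), in log2 units, coloured by group. The points follow 1 line across groups, r = 0.97, and remain aligned after the group means are removed, r = 0.836.

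The difference between the 2 probes within an array was not constant. Mt2 minus Mt1 ranged from -0.40 to -0.01 in the 4 Flk1+ samples of 84 h and from 0.01 to 0.11 in the Flk1- samples. At 95 h the ranges were -0.96 to -0.26 in Flk1+ and -0.09 to 0.26 in Flk1-, and at 8 d they were -0.83 to -0.63 in Flk1+ and -0.52 to -0.03 in Flk1-. At each time the sorts did not overlap, Mt2 being lower relative to Mt1 in Flk1+ cells. After quantile normalization the ranges at 8 d overlapped, at -0.66 to -0.43 and -0.58 to -0.03. This shows an unequal response of the 2 probes and says nothing of which transcript was the more abundant.

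Slc39a8 followed another course, with 1 group apart from the other five. At 8 d its level in the Flk1- samples was 1.10, 0.63, 0.84 and 0.91, and in the Flk1+ samples -0.77, -0.55, -0.07 and -0.64. The Flk1- samples were all above 0 and the Flk1+ samples all below it. The difference was -1.38 ± 0.25 (SE) or 2.60-fold, the 10th most negative of all features and nearly equal to that of Mt2 at this time. The same-numbered samples differed by -1.87, -1.17, -0.91 and -1.55.

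Before 8 d the sorts did not separate for Slc39a8. At 84 h the Flk1+ samples read -0.09, -1.21, -0.04 and -0.999 and the Flk1- samples -0.29, -0.41, -0.37 and -0.20. The 2 low Flk1+ values are replicates 2 and 4, the arrays that stood apart. The difference was -0.27 ± 0.25 (SE) with all arrays and 0.29 without those 3, so its sign rests on them. At 95 h the Flk1+ samples read -0.29, -0.66, 0.34 and -0.09 and the Flk1- samples -0.03, -0.79, 0.08 and -0.39, a difference of 0.11 ± 0.25 (SE) with replicate 2 the lowest in both sorts. This sign is not settled either, since the difference was -0.06 without Flk1+ replicate 3 or Flk1- replicate 2, and 0.27 without Flk1+ replicate 2.

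Between 95 h and 8 d the Flk1- level of Slc39a8 went up by 1.15 ± 0.25 (SE), or 2.22-fold, and the samples of the 2 times did not overlap, as for 13.8% of all features with the later time higher. In Flk1+ cells the same step was -0.33 ± 0.25, with overlap, and -0.16 without Flk1+ 95 h replicate 3. The change of the sort difference between 95 h and 8 d was -1.49 ± 0.35 (SE), the 12th most negative of all features. From lowest to highest the group means with SD were -0.58 ± 0.60 in Flk1+ at 84 h, -0.51 ± 0.31 in Flk1+ at 8 d, -0.32 ± 0.10 in Flk1- at 84 h, -0.28 ± 0.40 in Flk1- at 95 h, -0.17 ± 0.41 in Flk1+ at 95 h and 0.87 ± 0.20 in Flk1- at 8 d. Only the last stood clear of its neighbour. Across the 24 arrays Slc39a8 had a Pearson correlation of 0.143 with Mt1 and 0.107 with Mt2.

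The other metal handling genes came from lists of zinc, copper and iron genes, of which 31 of 53 were measured; Mt3, Mt4 and the regulator Mtf1 were not among the named probes. They were tested with limma, and "called" means a Benjamini-Hochberg adjusted p under 0.05 over all 17440 features. Among ZIP carriers other than Slc39a8, 7 of 13 were measured, and 0 were called between the sorts at 84 h, 95 h or 8 d by limma (0, 2 and 1 at an unadjusted p under 0.05). Calls between the sorts stood at 13.5% of all features at 84 h, 2.03% at 95 h and 0.373% at 8 d. Under alternatives Slc39a6 was called with array weights at 84 h and 95 h, higher in Flk1+ cells, and Slc39a4 at 95 h without Flk1- replicate 2, lower in Flk1+ cells. The largest of these differences at 8 d was that of Slc39a14, the ZIP carrier most closely related to Slc39a8 in sequence, at -0.30 (adjusted p = 0.468). It was called lower at 8 d under 3 of 16 alternatives: quantile normalization, only the arrays compared, and array weights. Slc39a14 levels were 0.21, 0.02, 0.06 and 0.06 in the Flk1- samples of 8 d and -0.19, -0.21, -0.13 and -0.31 in the Flk1+ samples, without overlap.

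From 95 h to 8 d, 2 of the 7 ZIP carriers rose and 1 fell in each sort, and the other 4 were not called. Slc39a6, which encodes ZIP6, rose from 95 h to 8 d by 1.69 ± 0.23 (SE) in Flk1- cells (limma adjusted p = 1.89e-05) and by 0.89 ± 0.23 in Flk1+ cells (adjusted p = 0.00873). Its levels in Flk1- cells went from -0.77, -1.74, -0.95 and -1.40 at 95 h to 0.53, 0.40, 0.56 and 0.39 at 8 d, with no overlap. Slc39a4, which encodes the intestinal and visceral endoderm zinc importer ZIP4, fell over the same step by 0.95 in Flk1- and by 0.72 in Flk1+ cells (adjusted p = 0.00164 and 0.0118; the call in Flk1+ cells was lost without Flk1+ 95 h replicate 3). Slc39a14 rose in Flk1- cells by 0.34 (adjusted p = 0.0209), a call lost without Flk1- replicate 1 of 8 d or of 95 h, and Slc39a11 rose in Flk1+ cells by 0.48 (adjusted p = 0.0298), a call lost under 9 of 15 alternatives. Over these steps 17.7% of all features were called in Flk1- and 22.1% in Flk1+ cells. The rise of Slc39a6 is thus found in both sorts, while the levels of Slc39a8 were higher at 8 d in the Flk1- sort alone.

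**Figure D3:**
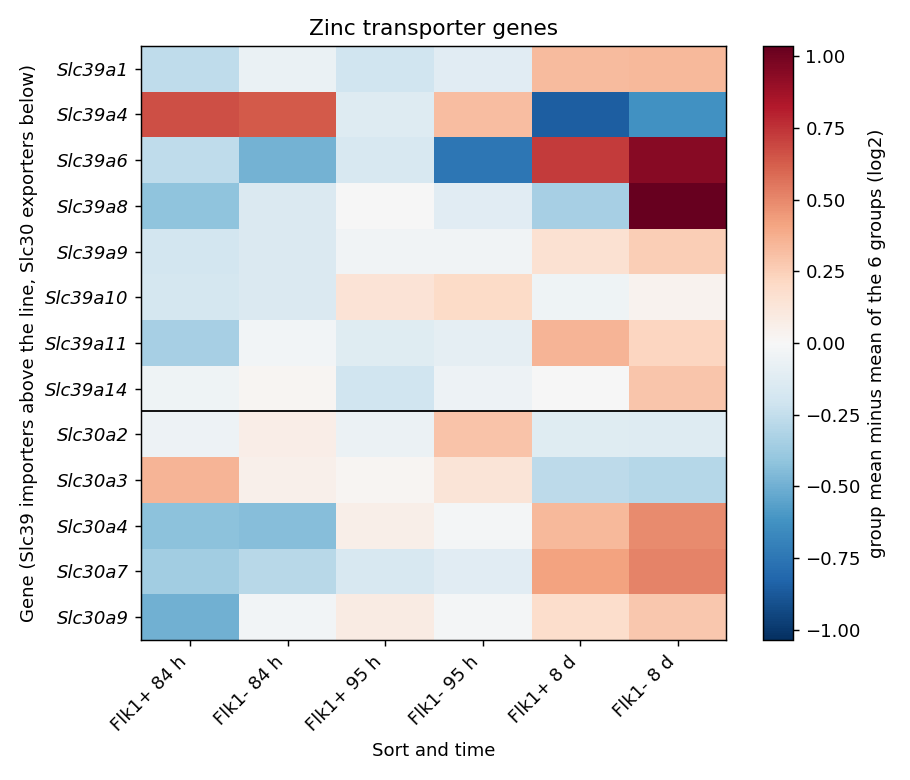
Group means of 8 Slc39 and 5 Slc30 genes, each as the difference from the mean of its 6 group means (log2 units; colour scale centred at 0). Slc39a8 is high in Flk1- at 8 d, at 1.04 above its mean, and Slc39a6 is high at 8 d in both sorts, at 0.72 and 0.94.

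For ZnT carriers, 5 of 10 genes were measured and 0 were called between the sorts at any time by limma (1, 1 and 0 at an unadjusted p under 0.05 at 84 h, 95 h and 8 d). At these times 13.5%, 2.03% and 0.373% of all features were called. Slc30a3 had a difference of 0.30 at 84 h (adjusted p = 0.0609) and was called higher in Flk1+ cells without the 3 arrays, at 0.46 (adjusted p = 0.0243), as without Flk1+ replicate 2, with medians as deposited, with array weights and with the replicate block within time. Slc30a2 had a difference of -0.35 at 95 h (adjusted p = 0.0849) and was called without the 3 arrays, without Flk1+ 95 h replicate 2 and with array weights. From 95 h to 8 d Slc30a7, a carrier of the Golgi and early secretory route, rose by 0.58 ± 0.16 (SE) in Flk1+ cells (limma adjusted p = 0.0125, lost without Flk1+ 95 h replicate 1) and by 0.63 ± 0.16 in Flk1- cells (adjusted p = 0.00837). In Flk1- cells Slc30a2 and Slc30a3, carriers of vesicles, fell by 0.43 each, and Slc30a4 rose by 0.51 (adjusted p = 0.0426, lost under 9 of 15 alternatives).

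Of 7 copper genes, 1 rose and 2 fell from 95 h to 8 d in Flk1+ cells, and 1 rose and 0 fell in Flk1- cells. The share of all features called over this step was 22.1% in Flk1+ and 17.7% in Flk1- cells. Atp7a, the copper pump of the Golgi and plasma membrane, rose from 95 h to 8 d by 1.27 ± 0.16 (SE) in Flk1+ cells and by 1.29 ± 0.16 in Flk1- cells (limma adjusted p = 3.26e-06 and 3.33e-06), and was called under all 15 alternatives of each. In Flk1+ cells the copper pump Atp7b fell by 0.32 (adjusted p = 0.0209, lost without Flk1+ 8 d replicates 1 or 3 or Flk1+ 95 h replicate 2) and Cp, the copper ferroxidase ceruloplasmin, fell by 0.54 (adjusted p = 0.0487, lost under 11 of 15 alternatives). Between the sorts at 84 h, 1 of 7 copper genes was called, beside 13.5% of all features. The called copper gene was Sod1, the copper and zinc superoxide dismutase, at -1.21 ± 0.33 (SE; adjusted p = 0.0229), with Flk1+ levels of -0.15, -2.16, -0.15 and -2.16. The low values are again replicates 2 and 4, and Sod1 was not called without the 3 arrays that stood apart.

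Among 12 measured iron genes the sorts gave 3 calls at 84 h, 2 at 95 h and 0 at 8 d (1 at an unadjusted p under 0.05 in limma), all with Flk1+ cells lower. The share of all features called at these times was 13.5%, 2.03% and 0.373%. Ftl1, the light chain of the iron store ferritin, was lower in Flk1+ cells by -0.49 ± 0.10 (SE) at 84 h (limma adjusted p = 0.00239) and by -0.40 ± 0.10 at 95 h (adjusted p = 0.0304). Its levels at 84 h were -0.42, -0.29, -0.52 and -0.31 in Flk1+ samples and 0.18, 0.17, 0.05 and 0.04 in Flk1- samples, without overlap. At 84 h the call held under all 16 alternatives; at 95 h it held under 7 of 16, and without Flk1+ replicates 1, 3 or 4 or Flk1- replicates 2 or 3 it was lost. Slc40a1, the iron exporter ferroportin, was lower by -0.47 ± 0.15 and -0.59 ± 0.15 (SE) at these times (adjusted p = 0.0451 and 0.0432), calls that held under 6 and 7 of 16 alternatives; leaving out the 3 arrays gave -0.33 at 84 h (adjusted p = 0.189). Slc40a1 then rose to 8 d by 1.68 ± 0.15 (SE) in Flk1+ and by 0.95 ± 0.15 in Flk1- cells (adjusted p = 3.72e-08 and 9.45e-05).

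Counted over all 31 genes, 0 were higher and 4 lower in Flk1+ cells at 84 h (Sod1, Slc40a1, Ftl1 and the heme oxygenase Hmox1), a share near the 13.5% of all features called in either direction; 8.18% were called lower. Leaving out 1 array moved this count between 1 and 6: it was 1 without Flk1+ replicate 4, Flk1- replicate 1 or Flk1- replicate 2, and 2 without Flk1- replicate 3. It was also 2 without Flk1+ replicate 2 and without the 3 arrays together, in both cases with Ftl1 lower and Slc30a3 higher. The share of all features moved with it, from 13.5% to 6.74% without the 3 arrays. At 95 h, where 1.37% of all features were called lower, it was 0 higher and 2 lower, moving between 0 and 3 with 1 array left out: it was 0 without Flk1+ replicates 1 or 4 or Flk1- replicate 3, and 1 without Flk1- replicates 1 or 2 or without Flk1+ replicate 3, where the call was Cp, higher in Flk1+ cells. It was 3 lower without Flk1+ replicate 2. At 8 d, where 0.224% were called lower, 0 were called by limma (2 at an unadjusted p under 0.05). With array weights 4 were called, all lower, in a fit that called 13.4% of all features. The median difference of the 31 genes was -0.10 at 84 h, -0.04 at 95 h and -0.05 at 8 d, beside medians of all features of 0.00, 0.00 and 0.01. The size of the metallothionein differences was not seen among these genes: none of the 31 was below the -1.99, -1.86 and -1.38 of Mt2 at the 3 times.

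**Figure D4:**
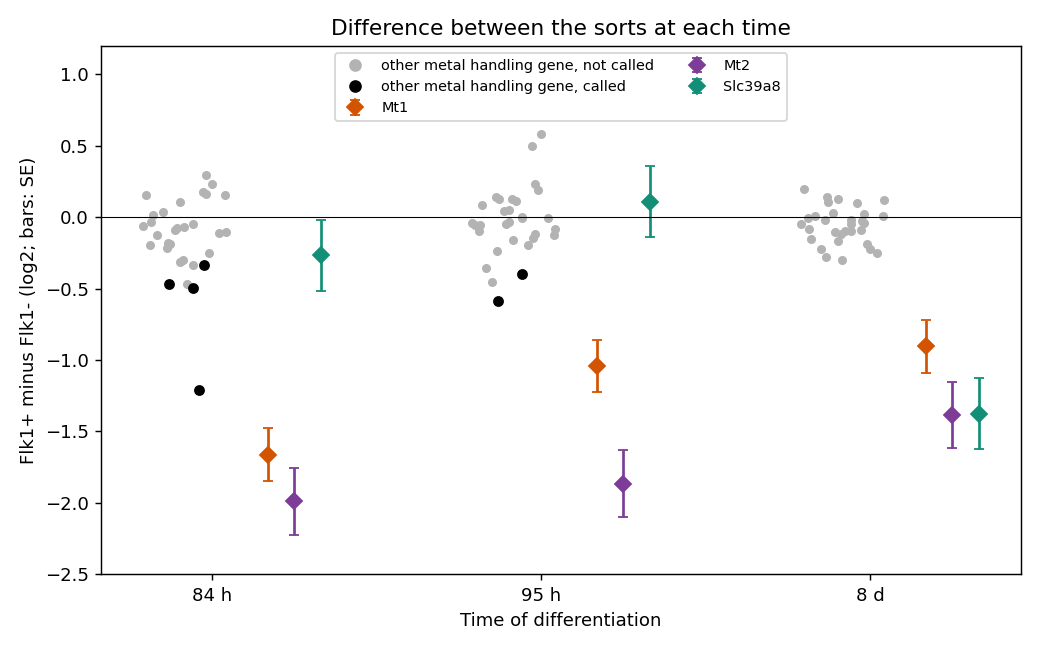
Flk1+ minus Flk1- difference (log2 units) at 84 h, 95 h and 8 d for Mt1, Mt2 and Slc39a8 (coloured diamonds with SE) and for the 31 other measured metal handling genes (dots, black where called). Mt1 and Mt2 lie below all 31 other metal genes at each time, and Slc39a8 joins them at 8 d with -1.38.

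With time, 10 of the 31 genes were called from 95 h to 8 d in each sort, 6 higher and 4 lower in both. Over this step 22.1% of all features were called in Flk1+ and 17.7% in Flk1- cells. In Flk1+ cells the count was 6 without Flk1+ 8 d replicates 1 or 3 or Flk1+ 95 h replicate 1. From 84 h to 95 h it was 6 higher and 2 lower in Flk1+ cells, where 19.8% of all features were called. This count was 13 without Flk1+ 84 h replicate 1, 5 without replicate 2, 3 without replicate 4, 4 without Flk1+ 95 h replicates 2 or 3, and 3 without the 3 arrays together. The largest of these was the rise of Sod1 by 1.07 ± 0.33 (SE; limma adjusted p = 0.0292), and Slc39a4 fell by 0.80 ± 0.20 (adjusted p = 0.0109); both calls were lost without the 3 arrays. In Flk1- cells 0 were called (3 at an unadjusted p under 0.05) beside 1.64% of all features. The change of the sort difference was called for 0 of 31 genes between 84 h and 95 h and 0 of 31 between 95 h and 8 d (3 and 5 at an unadjusted p under 0.05), beside 0.00573% and 0.533% of all features.

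Genes that answer to signals known to act on metallothioneins were counted in the same fit. Of all features, that fit called 8.18% lower in Flk1+ cells at 84 h, 1.37% at 95 h and 0.224% at 8 d. Of 10 measured glucocorticoid response genes, 0 were higher and 4 lower in Flk1+ cells at 84 h, 0 and 2 at 95 h, and 0 at 8 d (1 at an unadjusted p under 0.05 in limma). Klf9, a transcription factor induced by glucocorticoids, was lower by -1.02 ± 0.19 (SE) at 84 h (-0.70 without the 3 arrays) and by -0.77 ± 0.19 at 95 h (adjusted p = 0.00129 and 0.0282). Of 15 oxidative stress genes, 0 were higher and 5 lower at 84 h, among them Gclm, the modifier subunit of glutathione synthesis, at -0.92 ± 0.11 (SE; adjusted p = 9.52e-06), or -0.96 without the 3 arrays. At 95 h and at 8 d 0 of the 15 were called by limma (2 and 1 at an unadjusted p under 0.05). The median differences of the lists at 84 h were -0.45 for glucocorticoid and -0.24 for oxidative stress genes, beside 0.00 for all features. Without the 3 arrays that stood apart, 2 of the 10 (Klf9 and Ddit4) and 2 of the 15 (Nqo1 and Gclm) were called, all lower, with medians of -0.28 and -0.19, where 6.74% of all features were called.

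Hypoxia genes had the larger share, with 10 of 14 lower in Flk1+ cells at 84 h, 3 of 14 at 95 h and 0 of 14 at 8 d (0 at an unadjusted p under 0.05 in limma). This list was chosen with earlier results of these data known. Its share and the adjusted p-values of its genes are therefore a description and no test of hypoxia. Calls over all features fell over the same times, with 8.18%, 1.37% and 0.224% called lower. The median of the list at 84 h was -0.84, and without the 3 arrays it was -0.37 with 6 of 14 lower, where 6.74% of all features were called. Pdk1, a kinase that holds back pyruvate oxidation, was lower by -1.54 ± 0.18 (SE) at 84 h and -1.34 ± 0.18 at 95 h (adjusted p = 8.94e-06 and 0.00011). Ddit4, a hypoxia and glucocorticoid target that restrains mTOR and stands in both lists, was lower by -1.64 ± 0.23 and -1.09 ± 0.23 (adjusted p = 6.27e-05 and 0.00874). Without the 3 arrays the differences at 84 h were -1.50 for Pdk1 and -1.52 for Ddit4. At 8 d neither gene was called. Ddit4 differed by 0.08 and Pdk1 by 0.25, with all Flk1+ arrays of Pdk1 (1.23 to 1.37) above all Flk1- arrays (0.81 to 1.17). The change of the sort difference between 95 h and 8 d was called for Pdk1. Of 8 heat shock genes, 1 was lower at each time: Dnajb1 at 84 h, and Hspb1, a small heat shock protein, at 95 h by -1.14 ± 0.16 (SE) and at 8 d by -0.78 ± 0.16 (adjusted p = 0.000139 and 0.0232). Without the 3 arrays 0 of the 8 were called at 84 h by limma (1 at an unadjusted p under 0.05). The part of these signals in the metallothionein levels was not tested.

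Markers of visceral endoderm, a tissue known for both metallothioneins and serum carriers, were measured for 10 of 15 genes. The mean level of the list at 8 d lay between -0.97 and -0.80 on the Flk1+ arrays and between -0.32 and -0.03 on the Flk1- arrays. At 95 h it lay between -1.13 and -0.90 in Flk1+ and between -0.59 and -0.34 in Flk1-, and at 84 h between -1.11 and -0.83 and between -0.83 and -0.59. At 84 h 3 were higher in Flk1+ cells (Apoa1, Gata4 and Gata6) and 2 lower (Sox17 and Foxa2), or 2 and 1 without the 3 arrays that stood apart. Gata6 was not called at 8 d, where it lay between 1.39 and 1.59 in Flk1+ and between 1.27 and 1.36 in Flk1-. At 95 h 0 genes were called higher and 2 lower, and at 8 d 0 and 3. Of all features, 13.5%, 2.03% and 0.373% were called in either direction at the 3 times. The 3 at 8 d were Ttr, a carrier of thyroid hormone and retinol, at -1.999 ± 0.16 (SE), Foxa2, a transcription factor of endoderm, at -1.67 ± 0.20, and Apoa1, an apolipoprotein, at -0.53 ± 0.10 (limma adjusted p = 2.68e-07, 0.000132 and 0.0201). The mean of the 7 pluripotency genes, whose list had 5, 3 and 0 genes lower in Flk1+ cells at the 3 times (3 at 84 h without the 3 arrays; 2 at an unadjusted p under 0.05 at 8 d in limma), lay at 95 h between 1.66 and 1.96 in Flk1- and between 0.639 and 0.81 in Flk1+ cells. The part of such cells in the levels of Mt1, Mt2 and Slc39a8 was not tested.

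The 5 named genes most like each of the 3 were taken by Pearson correlation over the 24 arrays, which share groups and samples. After Mt2, the closest to Mt1 were St14, a membrane serine protease of epithelia, with r = 0.925, Ovol2, an epithelial transcription factor, with 0.898, Irs4, an adaptor of insulin signalling, with 0.892, and Cldn3, a tight junction protein, with 0.888. For Mt2 they were Mt1, Irs4 with 0.938, St14 with 0.934, Ovol2 with 0.92 and Foxa2 with 0.913. Within groups the correlation with Mt1 was 0.163 for St14, -0.11 for Ovol2 and 0.131 for Cldn3, and 0.508 for Irs4, where Mt2 had 0.836. With Mt2 it was 0.664 for Irs4, 0.266 for Foxa2, 0.05 for St14 and -0.06 for Ovol2, so of these genes Irs4 had the highest within-group values. These include Flk1+ 84 h replicate 2, an array that stood apart, where Irs4 was 1.705 against -0.07 to 0.15 on the other Flk1+ arrays of 84 h. The mean level of St14 was 1.297, 0.82 and 0.18 in Flk1- cells at 84 h, 95 h and 8 d, and -0.36, -0.63 and -0.73 in Flk1+ cells, so that its Flk1- means stand in the same order of times as those of the metallothioneins.

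The genes most like Slc39a8 were Ttr with r = 0.851, Ubqln2, a shuttle of ubiquitinated proteins, with 0.847, Plscr1, a phospholipid scramblase, with 0.836, Ptpn21, a tyrosine phosphatase, with 0.781 and Hbegf, a ligand of the EGF receptor, with 0.771. Ttr levels at 8 d were -1.07, -1.24, -1.13 and -1.52 in the Flk1- samples and -3.24, -3.01, -3.38 and -3.33 in the Flk1+ samples, while no sample of 84 h or 95 h in either sort exceeded -2.66. As for Slc39a8, the Flk1- samples of 8 d are the only group that stands clear of the others. Within groups, the correlations with Slc39a8 were 0.449 for Ttr, 0.239 for Hbegf, 0.705 for Ubqln2, 0.84 for Plscr1 and 0.807 for Ptpn21. These include the arrays that stood apart. On Flk1+ 84 h replicates 2 and 4, Slc39a8, Ubqln2, Plscr1 and Ptpn21 all lay below the other arrays of that group. Plscr1 read 0.36, -1.03, 0.50 and -0.85 there. Within-group correlations without these arrays are not given. Of the 5, 4 were again among the closest without the 3 arrays that stood apart, and 2 by Spearman correlation.

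**Figure D5:**
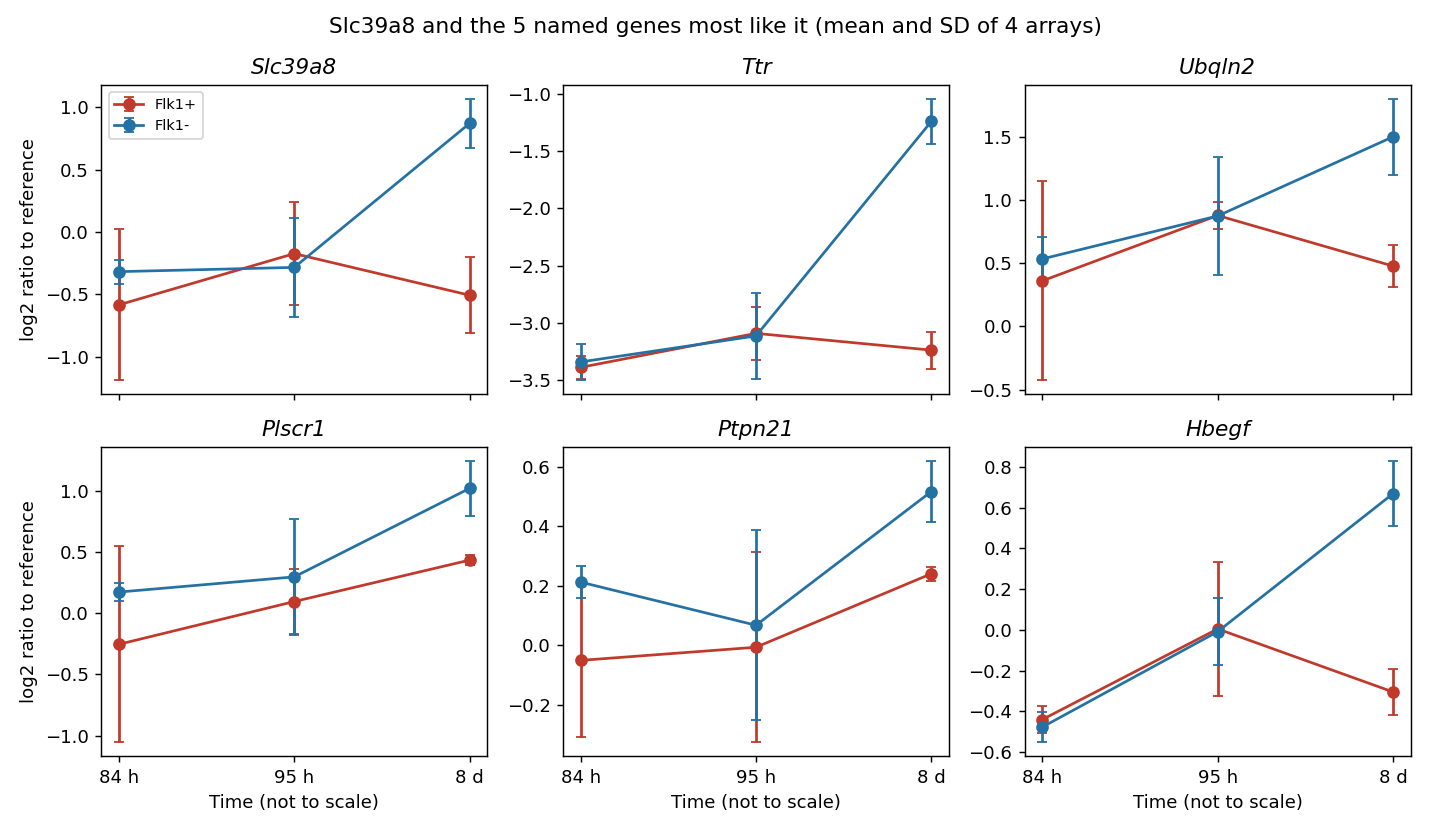
Mean level with SD (n = 4 arrays) of Slc39a8 and of the 5 named genes most like it, by time and sort, in log2 units. Ttr and Slc39a8 share the high Flk1- mean at 8 d, at -1.24 and 0.87.

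Mt2 and Mt1 lie side by side on chromosome 8, and Slc39a8 lies on chromosome 3. The 3 nearest measured coding genes on each side of either locus were read as neighbours. Of these 12 genes, 1 was called between the sorts: Ogfod1 beside the metallothioneins, higher in Flk1+ cells at 84 h by 0.35 (limma adjusted p = 0.0367). At that time 13.5% of all features were called. The difference of Ogfod1 was 0.21 without Flk1+ replicate 2 and 0.14 without the 3 arrays that stood apart, and it was not called in either (adjusted p = 0.114 and 0.374). It was not called either without Flk1+ replicate 4 or Flk1- replicates 1, 2 or 3. At 95 h and 8 d 0 of the 12 were called, beside 2.03% and 0.373% of all features. Nup93, next to Mt1 with no coding gene between in the gene table, differed by -0.93 ± 0.34 (SE) at 84 h (adjusted p = 0.066), by 0.05 at 95 h and by 0.01 at 8 d; without the 3 arrays that stood apart its difference at 84 h was -0.08. The next measured gene to Slc39a8 was Ppp3ca, which differed by -0.03 at 8 d. At 8 d the largest difference among the neighbours was that of Emcn, an endothelial surface sialomucin, at 0.68 and not called, against -0.90, -1.38 and -1.38 for Mt1, Mt2 and Slc39a8.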

How the data were processed

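RNA of 24 sorted mouse cell samples was read on two-colour Agilent arrays against a pup reference; per the labels, both RNAs were amplified, the sample carried Cy5 and no dyes were swapped. The deposited values, handled as log2 ratios of Cy5 over Cy3, come from the authors' deposit, and log base, feature extraction, background correction and normalization are not given in the sources used here. The direction was read from the dyes in the labels together with Kdr, higher in Flk1+, and pluripotency genes, whose mean lay above 0 at 84 h. The deposit held 20280 probes with no missing value, each array having a mean of 0, and no intensities. Platform annotation gave 1 gene for 11813 probes, several for 559 and none for 7908; Entrez identifiers of 11782 were found in the RefSeq gene list. Probes of 1 gene were averaged, giving 17440 features, and array medians were set to 0.

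limma 3.58.1 in R 4.3.3 with data.table (version 1.17.8) fitted all 24 arrays with a mean per group (18 residual and 3.41 prior degrees of freedom), with Benjamini-Hochberg adjustment over all features and a threshold of 0.05; the fit was tested on simulated data. Precision is limited by 4 arrays per group. Genes named are the 3 members, list genes (at most the 4 largest called of a list in each direction), the 5 genes most correlated with each member, 3 neighbours on each side of each locus, and Kdr. Members and lists were chosen with earlier results of these data known. Lists of endothelial, erythroid and smooth muscle genes were also measured: 1, 0 and 1 genes were higher and 0, 0 and 1 lower in Flk1+ at 84 h, 1, 0 and 0 higher and 1, 0 and 1 lower at 95 h, and 2, 0 and 0 higher and 0, 0 and 0 lower at 8 d (at an unadjusted p under 0.05 in limma 2, 1 and 3, then 2, 0 and 2, then 4, 1 and 0). The share of all features called at the 3 times was 13.5%, 2.03% and 0.373%.

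Replicate numbers were checked as pairs by the correlation of deviations from group means. Same-numbered sorts correlated at 0.107 to 0.417 at 95 h and 0.146 to 0.437 at 8 d, and at -0.13 to 0.526 at 84 h, so the numbers were taken as pairs at 95 h and 8 d. The main fit held no term for these pairs, so the standard errors and calls given do not use them. The pairs entered only through an alternative, the replicate block within time. The numbers across times were not taken as pairs. Alternatives were other scalings, smaller fits, array weights, 1 probe per gene, replicate blocks and arrays left out; leaving out the 3 arrays for the stress and cell type lists was chosen after seeing the data. Figures used Python 3.11.15 with matplotlib 3.10.9.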

Additional observations from a re-analysis of the deposited data

Results flagged for a closer look

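Of 18 sets of 4 arrays (3 genes in 6 groups), 1 held an array far from the others. Mt1 in Flk1+ at 95 h was -1.57 in replicate 2, above the other three at -1.99 to -1.92, and the gap made up 0.837 of the whole range. Chance marks about 1 in 20 such sets. Mt2 in the same array, at -2.48, lay within the range of its group.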

How the results depend on the processing

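Of 468 values of Mt1, Mt2 and Slc39a8 under alternatives, 456 moved by less than 1 SD. Most of them could not have moved further, so this count is no measure of robustness. Smaller fits, 1 probe per gene and replicate blocks leave a difference of these genes unchanged. Leaving out 1 array shifts a group mean by less than the SD of its arrays. The sort differences of Mt1 and Mt2 at each time and of Slc39a8 at 8 d kept their sign under all 16 alternatives of each. With quantile normalization the sort difference at 84 h was -1.20 for Mt1 and -1.50 for Mt2, that of Slc39a8 at 8 d was -1.77, the Flk1+ step from 84 h to 95 h was -0.28 for Mt1 and -0.80 for Mt2, the Flk1+ step from 95 h to 8 d was -0.77 for Mt1, and the change of the sort difference was 0.20 for Mt1 and -0.36 for Mt2 from 84 h to 95 h and -1.87 for Slc39a8 from 95 h to 8 d. Slc39a8 at 84 h was 0.23 with array weights and 0.29 without the 3 arrays that stood apart, where its change from 84 h to 95 h was -0.18.

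Calls among the 31 metal genes numbered 4 at 84 h, 2 at 95 h and 0 at 8 d between the sorts. In parentheses stands the share of all features called in the same fit, 13.5%, 2.03% and 0.373% for the 3 times in the main setting, which moved with these counts. At 84 h they were 2 with quantile normalization (7.48%), 1 with only the arrays compared (1.99%), 7 with array weights (20.8%), 2 without the 3 arrays (6.74%) and 1 to 6 with 1 array left out. At 95 h they were 1 with medians as deposited (1.91%), 1 with quantile normalization (2.02%), 0 with only the arrays compared (0.774%; 4 at an unadjusted p under 0.05 in limma) and 0 to 3 with 1 array left out. At 8 d they were 1 with quantile normalization (1.25%), 2 with only the arrays compared (5.46%) and 4 with array weights (13.4%). From 84 h to 95 h in Flk1+ cells, 8 calls (19.8%) became 4 with quantile normalization (9.32%), 0 with only the arrays compared (0%; 5 at an unadjusted p under 0.05 in limma), 2 with array weights (4.61%), 3 without the 3 arrays (5.45%) and 3 to 13 with 1 array left out; in Flk1- cells 0 (1.64%) became 3 with array weights (12.4%). From 95 h to 8 d, 10 calls became 6 to 8 in Flk1+ cells with 1 array left out and 16 in Flk1- cells with array weights (38.4%, from 17.7%). The change of the sort difference from 95 h to 8 d had 0 calls (0.533%), 1 with only the arrays compared (0.923%), 1 with array weights (1.65%), 1 without the 3 arrays (1.8%) and 0 to 1 with 1 array left out. The cause was not tested, beyond fewer arrays in the smaller fits.

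A replicate block over all times gave 1 call at 95 h; the block within each time, by which the numbers pair the sorts at 95 h and 8 d, gave 5, 2 and 0 calls between the sorts at 84 h, 95 h and 8 d and changed no other count by over 1.5 times. The filter on dim probes was not run, since the table holds no intensities, and how far each probe stood above background is not known.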
